A study of Mus musculus with 9 samples.

Results

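Red cell genes were examined in lens RNA of mouse embryos at E16.5, in 4 homozygous *Atf4* null and 5 wildtype embryos with 1 library per pair of lenses. The genes were chosen by symbol: 7 globin genes, *Alas2* and *Slc4a1*, which are 9 of the 55416 gene identifiers in the count files. All 9 were found, and 8 passed the filter on low counts, the exception being *Hbb-bh1*. The null allele, *Atf4tm1Tow*, replaces part of *Atf4* with a neomycin cassette in every cell of the embryo, and the wildtype embryos were littermates from crosses of heterozygous mice on a mixed strain background. The samples were labelled as whole lens, and no other treatment was given. The question asked here was whether the globins differed between the genotypes and whether they followed the other erythroid genes from library to library.

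Hemoglobin is a tetramer of alpha-like and beta-like globin chains, each carrying a heme. Mouse red cells change their globins during gestation: the primitive cells from the yolk sac use *Hbb-y* and *Hbb-bh1* with *Hba-x* beside the adult alpha genes, while the definitive cells from the fetal liver use *Hbb-bs* and *Hbb-bt* with *Hba-a1* and *Hba-a2*. *Alas2* encodes the erythroid enzyme that begins heme synthesis, and *Slc4a1* encodes band 3, the anion exchanger of the red cell membrane. The lens itself has no blood vessels within it, but in the embryo it is wrapped by a capillary net, the tunica vasculosa lentis, through which red cells pass.

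Both adult pairs are nearly identical copies, which limits what a count of either gene means. *Hbb-bs* (chr7:103475730-103482989) and *Hbb-bt* (chr7:103461727-103465047), both on the minus strand of GRCm39, have coding sequences of 444 bases with 1 difference. It is C417T, with the base of *Hbb-bs* first and positions counted from 1 at the first base of the start codon. The last 63 coding bases of each gene are given from GRCm39 with the differing base in capitals, because it is the one coding base by which these genes can be told apart.
Hbb-bs: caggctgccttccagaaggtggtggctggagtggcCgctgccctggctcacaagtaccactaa
Hbb-bt: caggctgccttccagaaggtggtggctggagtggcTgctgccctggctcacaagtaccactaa

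*Hba-a1* (chr11:32233186-32234504) and *Hba-a2* (chr11:32246168-32247320), on the plus strand, have coding sequences of 429 bases, again with 1 difference, T381C with the base of *Hba-a2* first. Coding bases 346 to 416 are shown with that base in capitals.
Hba-a1: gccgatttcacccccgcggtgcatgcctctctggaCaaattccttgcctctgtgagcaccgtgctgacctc
Hba-a2: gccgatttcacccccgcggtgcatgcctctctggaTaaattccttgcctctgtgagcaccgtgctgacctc

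Reads with more than 1 alignment were not counted by the authors. In windows of 50 bases along the transcript, 62.3% of *Hbb-bs* windows were also found in *Hbb-bt*, and 58.2% of *Hbb-bt* windows in *Hbb-bs*. For the alpha genes the shares were higher, at 82.7% of *Hba-a1* and 91.6% of *Hba-a2*. The counts of these 4 genes rest on their remaining stretches, so the level of either copy is uncertain and each pair understates its RNA. No such window of *Hbb-y*, *Hbb-bh1*, *Hba-x*, *Alas2* or *Slc4a1* was shared with another gene. *Hbb-y* (chr7:103500956-103502423) and *Hbb-bs* differed at 114 of 444 coding bases, and *Hba-x* (chr11:32226400-32228116) and *Hba-a1* at 163 of 429. *Alas2* (chrX:149330371-149353634) lies within the span of *Apex2* on the opposite strand, and the strand setting of the counting is not given in the sources used here, so reads of *Apex2* may be held in its count. The log2 fold change of *Apex2* was -0.06 (edgeR quasi-likelihood test, adjusted p = 0.927). The span of *Hbb-bs* also overlaps an annotated pseudogene on its own strand. *Hbb-bs*, *Hbb-bt* and *Hbb-bh1* each overlap an annotated gene on the opposite strand. The effect of these overlaps on the counts was not tested.

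The promoters carried the letters known from globin genes. RefSeq's promoter table (GRCm38.p6) held 7 of the 9 genes, and the 150 bases before each start were located in GRCm39 by exact match. The 3 windows shown are of the most counted beta gene, its embryonic relative and *Alas2*, with matches to 4 short motifs, spelled out after the windows, in capitals.
Hbb-bs, chr7:103477136-103477285, minus strand: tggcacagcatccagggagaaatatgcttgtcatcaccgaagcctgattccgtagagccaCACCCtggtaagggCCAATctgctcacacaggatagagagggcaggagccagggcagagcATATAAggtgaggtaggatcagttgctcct
Hbb-y, chr7:103502415-103502564, minus strand: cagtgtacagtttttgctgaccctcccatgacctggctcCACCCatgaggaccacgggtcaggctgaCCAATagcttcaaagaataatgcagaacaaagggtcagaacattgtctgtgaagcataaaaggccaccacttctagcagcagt
Alas2, chrX:149330263-149330412, plus strand: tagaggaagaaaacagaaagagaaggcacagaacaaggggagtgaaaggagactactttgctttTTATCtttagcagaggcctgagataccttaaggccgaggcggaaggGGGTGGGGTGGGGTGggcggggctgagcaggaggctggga

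CACCC, the letters of the element bound by KLF1-type factors, was found in all 7 windows, against 36.9% of 27025 promoters of the same length. CCAAT was found in 5 of the 7, all of them globins, against 25.3% of all promoters, and ATATAA in 5 against 5.57%. GATAA, the letters read by GATA1, was found in 2, *Hba-x* and *Alas2*, against 13.6%. The windows of *Hba-a1* and *Hba-a2* were the same sequence offset by 3 bases. TGATGCAA, an element bound by ATF4, was in none of the 7 windows, against 0.566% of all promoters. At so low a share 7 windows would rarely hold a match, so nothing about ATF4 can be read from this. Motifs were searched on both strands, no 2 matches overlapped in these windows, and a match describes letters and not binding.

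The libraries held 8409779 to 8906996 gene counts in wildtype and 7440807 to 8696699 in *Atf4* null. *Atf4* was at 119 to 155 CPM (counts scaled per library by TMM factors) in wildtype and at 0.582 to 10.6 in *Atf4* null, in accord with the labels. Wildtype replicate 5 stood apart, with 2.02% of its counts on lists of skeletal muscle and mesenchyme genes, against 0.0225% to 0.0605% in the other 8 libraries. The wildtype replicate numbers follow the sample titles, which name other wildtype libraries than the count files attached to them, so a number may belong to another wildtype embryo; the genotypes are unaffected. In bulk RNA, fewer red cells and less RNA per red cell cannot be told apart. Globins made up 0.0175% to 0.022% of the counts of the *Atf4* null libraries. In wildtype they made up 0.0188% and 0.0226% in replicates 1 and 2, and 0.0619%, 0.0467% and 0.0433% in replicates 3, 4 and 5.

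The fitted level of each adult globin was 1.87 to 2.21 times higher in wildtype than in *Atf4* null lenses, but only *Hba-a1* passed the test, and the wildtype means were carried by 3 of the 5 libraries. Of the 8 genes tested, 1 was called as lower in *Atf4* null and 0 as higher, where 5.9% of all 14903 genes tested were called in either direction, 3.67% as lower and 2.23% as higher (edgeR quasi-likelihood test, Benjamini-Hochberg adjusted p below 0.05). At an unadjusted p below 0.05, 6 of the 8 were lower, where 19.6% of all genes passed in either direction and 10.2% as lower. These 6 share their libraries, and the adult pairs share their sequence, so they are not separate observations.

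**Figure D1:**
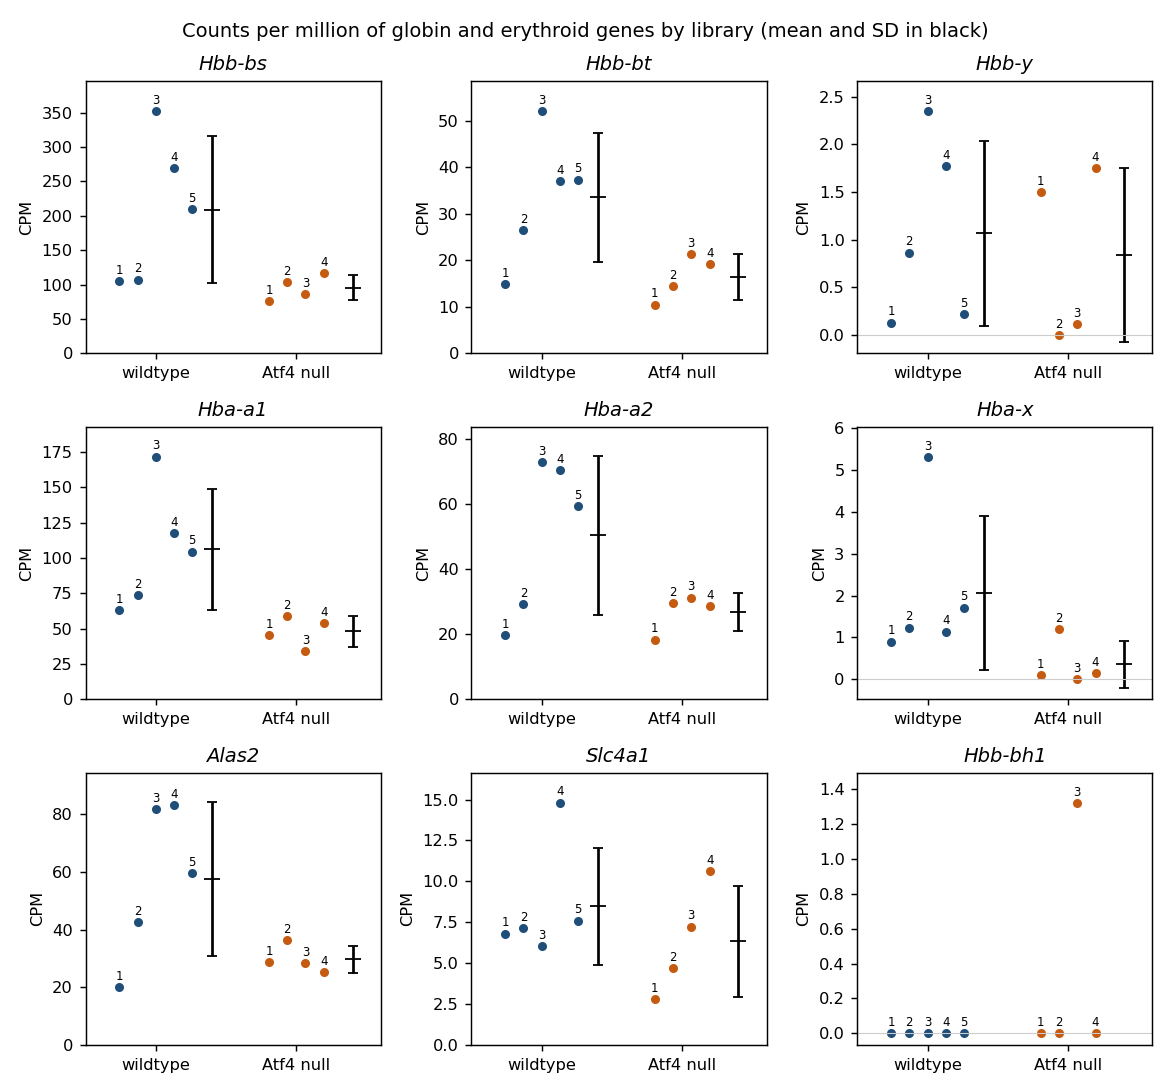
CPM of each gene (y axis, a separate scale in each panel) in the 5 wildtype and 4 *Atf4* null libraries (points, with the replicate number), with the mean and SD of each genotype in black except for *Hbb-bh1*. Wildtype replicates 3, 4 and 5 sit above the other 6 libraries for *Hbb-bs*, *Hbb-bt*, *Hba-a1*, *Hba-a2* and *Alas2*, while wildtype replicates 1 and 2 sit among or near the *Atf4* null libraries.

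*Hbb-bs*, the adult beta-like globin with more counts, was at 105, 107, 353, 269 and 210.0 CPM in wildtype replicates 1 to 5. It was at 75.8, 103.5, 86.1 and 117 CPM in *Atf4* null replicates 1 to 4. The 2 lowest wildtype libraries lay within the range of the *Atf4* null libraries, so the genotypes overlapped. The mean was 209 ± 107 CPM in wildtype (SD, n = 5) and 95.5 ± 18.2 in *Atf4* null (SD, n = 4), a log2 fold change of -1.13 ± 0.32 (SE) with an adjusted p of 0.0556 in edgeR. The exact two-sided permutation test of the genotype labels gave p = 0.0714. Leaving out wildtype replicate 5 gave -1.12 (adjusted p = 0.0349 in edgeR).

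*Hbb-bt*, the second adult beta-like globin, was at 14.9, 26.4, 52.1, 37.0 and 37.4 CPM in wildtype and at 10.5, 14.5, 21.4 and 19.2 in *Atf4* null. Wildtype replicate 1 lay within the *Atf4* null range. The log2 fold change was -1.03 ± 0.32 (adjusted p = 0.0851 in edgeR, exact permutation p = 0.0556), and -0.99 without wildtype replicate 5 (adjusted p = 0.0766).

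*Hba-a1*, an adult alpha globin, was at 63.0, 73.9, 172, 118 and 104.4 CPM in wildtype and at 45.2, 59.0, 34.1 and 54.0 in *Atf4* null. All 4 *Atf4* null libraries lay below all 5 wildtype libraries, as they did for 5.58% of all genes tested, while for 4.65% they lay above. The mean fell from 106 ± 42.8 CPM (SD, n = 5) to 48.1 ± 10.9 (SD, n = 4), a log2 fold change of -1.14 ± 0.26 with an adjusted p of 0.0208 in edgeR and an exact permutation p of 0.0159. The call was lost without *Atf4* null replicate 3 (adjusted p = 0.0795 in edgeR) and without wildtype replicate 4 (adjusted p = 0.0538). It held without wildtype replicate 5 (log2 fold change -1.15, adjusted p = 0.0113).

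*Hba-a2*, its near-identical copy, was at 19.6, 29.4, 72.9, 70.6 and 59.4 CPM in wildtype and at 18.3, 29.5, 31.3 and 28.7 in *Atf4* null. Wildtype replicates 1 and 2 lay within the *Atf4* null range. Its log2 fold change of -0.90 ± 0.34 did not pass the test (adjusted p = 0.154 in edgeR, exact permutation p = 0.119), and was -0.83 without wildtype replicate 5 (adjusted p = 0.153). The difference between the 2 alpha genes in call was not itself tested.

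The embryonic globins had from 0 to 43 counts in a library. A count of 3 corresponded to 0.299 to 0.437 CPM, depending on the library. *Hbb-y*, the epsilon-like globin of primitive red cells, had 1, 7, 19, 14 and 2 counts in wildtype and 15, 0, 1 and 12 in *Atf4* null, 71 counts in all. Both genotypes held libraries at 0 to 2 counts and libraries above 10. The log2 fold change was -0.35 ± 1.11 (adjusted p = 0.915 in edgeR, exact permutation p = 0.619), so no difference was detectable at this depth. It was -0.61 without wildtype replicate 5 (adjusted p = 0.815).

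*Hba-x*, the zeta-like globin, had 7, 10, 43, 9 and 16 counts in wildtype and 1, 10, 0 and 1 in *Atf4* null. *Atf4* null replicate 2, at 1.20 CPM, lay within the wildtype range of 0.899 to 5.31 CPM, and the 3 other *Atf4* null libraries were at 0.0997, 0 and 0.146 CPM. The fitted log2 fold change of -2.48 ± 1.05 had an adjusted p of 0.209 in edgeR, and the exact permutation test gave p = 0.0238, unadjusted and 1 of 9 such tests. Leaving out *Atf4* null replicate 2 moved the fitted value to -4.48 (adjusted p = 0.0728 in edgeR), and without wildtype replicate 5 the gene did not pass the filter on low counts. *Hbb-bh1* (chr7:103490844-103492371), the other embryonic beta-like globin, had 12 counts in *Atf4* null replicate 3, at 1.32 CPM, and 0 counts in the other 8 libraries.

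*Alas2* was at 20.2, 42.6, 81.8, 83.0 and 59.6 CPM in wildtype and at 28.7, 36.2, 28.4 and 25.2 in *Atf4* null. The lowest library of all was wildtype replicate 1 and the 3 highest were wildtype replicates 3, 4 and 5. The log2 fold change was -0.95 ± 0.33 (adjusted p = 0.114 in edgeR, exact permutation p = 0.111), and -0.94 without wildtype replicate 5 (adjusted p = 0.0882). *Slc4a1* (chr11:102239650-102257029) was at 6.80, 7.16, 6.05, 14.8 and 7.60 CPM in wildtype and at 2.79, 4.68, 7.24 and 10.6 in *Atf4* null. The genotypes overlapped widely, with a log2 fold change of -0.43 ± 0.43 (adjusted p = 0.657 in edgeR, exact permutation p = 0.325), and -0.46 without wildtype replicate 5 (adjusted p = 0.629).

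On a scale per length, FPKM of the main transcript, the wildtype means were 314 ± 161 for *Hbb-bs*, 144 ± 58.0 for *Hba-a1*, 77.9 ± 37.7 for *Hba-a2*, 47.7 ± 19.7 for *Hbb-bt* and 28.2 ± 13.1 for *Alas2* (SD, n = 5). In *Atf4* null they were 144 ± 27.4, 65.1 ± 14.8, 41.6 ± 9.02, 23.3 ± 6.94 and 14.5 ± 2.30 FPKM in turn (SD, n = 4). The stretches shared between copies take unequal parts of the 4 adult genes, from 58.2% of the windows of *Hbb-bt* to 91.6% of those of *Hba-a2*, and FPKM divides by the whole transcript, so no order of levels can be read among these 4 genes or between them and the others. Among the genes with no shared stretch, *Alas2* was above *Hba-x* at 2.57 ± 2.30, *Slc4a1* at 1.87 ± 0.788 and *Hbb-y* at 1.68 ± 1.54 in wildtype, and the last 3 lay within the sum of their SDs.

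The makeup of the globins was compared within each library, where the scaling between libraries has no part. *Hbb-bt* was 12.4%, 19.8%, 12.9%, 12.1% and 15.1% of the counts of *Hbb-bt* and *Hbb-bs* in wildtype replicates 1 to 5, and 12.1%, 12.3%, 19.9% and 14.1% in *Atf4* null replicates 1 to 4. Wildtype replicate 2 (exact binomial 95% interval 17.4% to 22.3%) and *Atf4* null replicate 3 (17.4% to 22.5%) stood above the other 7 libraries, whose intervals ended at or below 16.6%. The log2 ratio of *Hbb-bt* to *Hbb-bs*, with 1 added to each count, differed by 0.02 between the genotype means (-2.57 ± 0.39 in *Atf4* null, n = 4, and -2.58 ± 0.35 in wildtype, n = 5, SD, exact permutation p = 0.952). Mouse strains carry different haplotypes of the adult beta globin genes, and the haplotypes of these mixed background embryos are not part of the count files; their part in the shares was not tested. These intervals cover counting error only, and reads without molecular identifiers are not independent molecules.

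**Figure D2:**
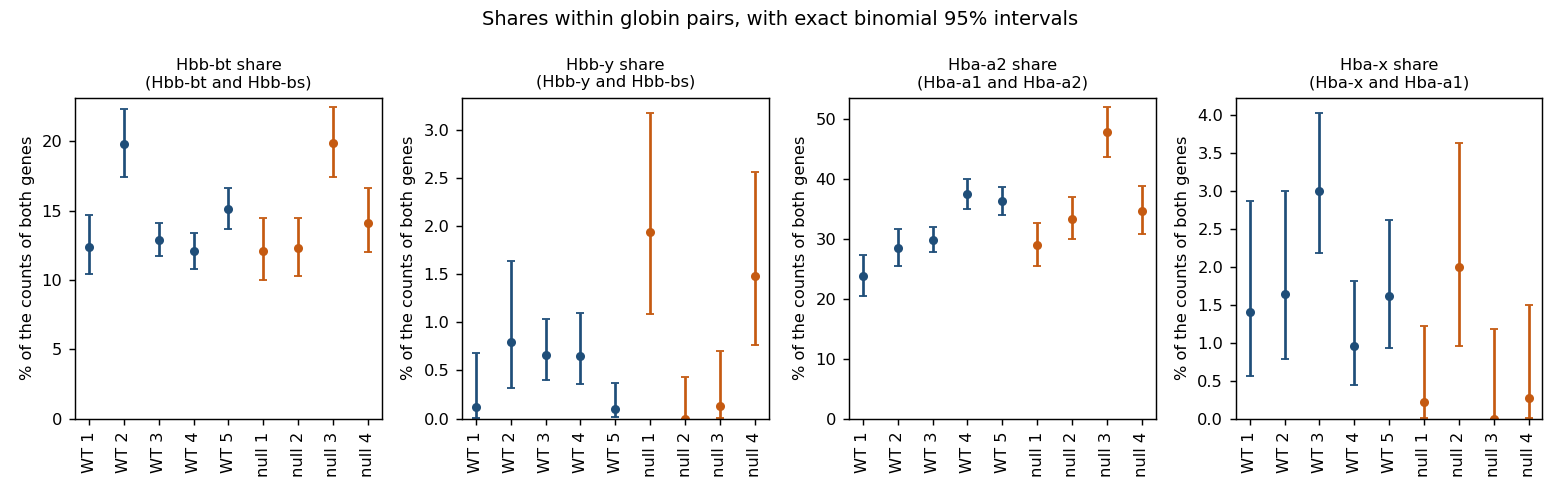
Share of the first gene in the counts of a globin pair (y axis, %) in each library (x axis, WT for wildtype and null for *Atf4* null), with exact binomial 95% intervals. The *Hbb-bt* share is 19.8% in wildtype replicate 2 and 19.9% in *Atf4* null replicate 3 and no higher than 15.1% in the others, and the *Hba-a2* share reaches 47.8% in *Atf4* null replicate 3.

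*Hba-a2* was 23.8% to 37.5% of the counts of both adult alpha genes in wildtype. In *Atf4* null replicates 1 to 4 it was 28.9%, 33.3%, 47.8% and 34.7%. *Atf4* null replicate 3, with an interval of 43.7% to 51.9%, was above all others, the next being wildtype replicate 4 at 37.5%. It was also the library with the high *Hbb-bt* share and the only one with counts of *Hbb-bh1*, and one of the 2 libraries without which the call of *Hba-a1* was lost.

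The embryonic share of the beta-like globins, *Hbb-y* over the sum of *Hbb-y* and *Hbb-bs*, was 0.122%, 0.799%, 0.661%, 0.654% and 0.102% in wildtype and 1.94%, 0%, 0.127% and 1.48% in *Atf4* null. The value of 0 rests on 863 counts and allows a share of up to 0.348% by the limit of 3 counts, while its exact binomial 95% interval ends at 0.427%. *Atf4* null replicates 1 and 4 had the highest shares and replicate 2 the lowest. The log2 ratio differed by 0.35 (-7.47 ± 2.04 in *Atf4* null, n = 4, and -7.82 ± 1.13 in wildtype, n = 5, SD), far less than its spread (exact permutation p = 0.746, smallest possible p 0.00794). *Hbb-bs*, the definitive gene, held at least 98.1% of the counts of this pair in each of the 9 libraries.

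Across libraries, the adult globins and *Alas2* separated the same libraries. For *Hbb-bs*, *Hbb-bt*, *Hba-a1*, *Hba-a2* and *Alas2* each, the 3 highest libraries were wildtype replicates 3, 4 and 5, and the 6 others lay below them with no overlap. For *Alas2* the highest of the 6 was at 42.6 CPM and the lowest of the 3 at 59.6 CPM, and for *Hbb-bs* these were 117 and 210.0 CPM. *Slc4a1* did not share this split: wildtype replicate 3, the highest library of *Hbb-bs*, had the third lowest *Slc4a1* value. The counts of *Hbb-bs* per count of *Hba-a1* ran from 1.45 to 2.52 over the 9 libraries, a range of 1.74-fold. Per count of *Alas2* they ran from 2.52 to 5.20, a range of 2.06-fold, while *Hbb-bs* CPM itself had a range of 4.66-fold. Per count of *Slc4a1* they ran from 10.97 to 58.3, a range of 5.32-fold.

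**Figure D3:**
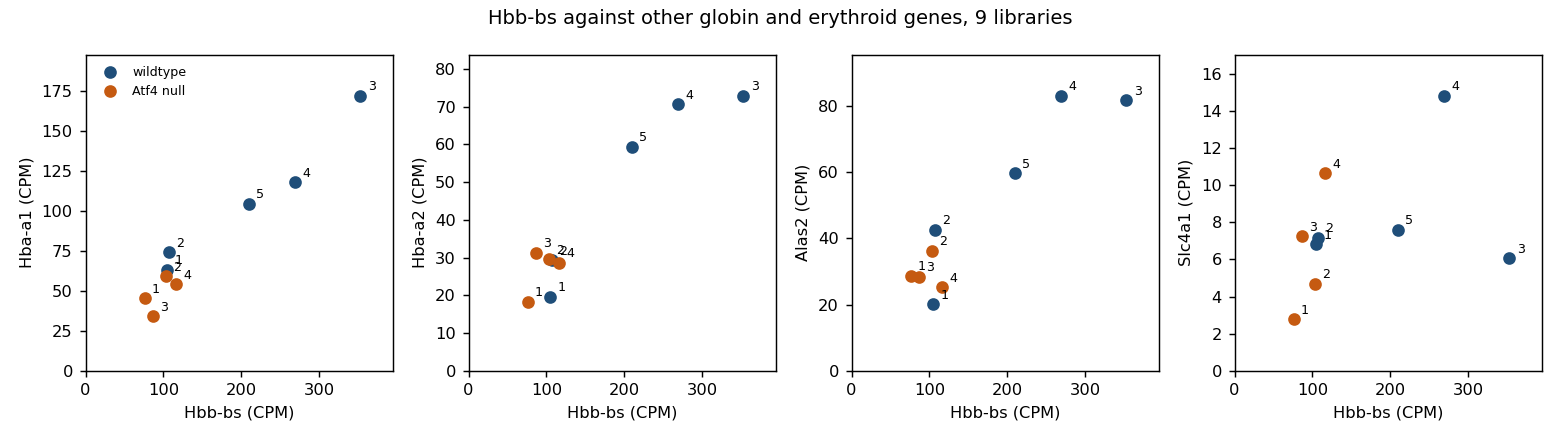
CPM of *Hba-a1*, *Hba-a2*, *Alas2* and *Slc4a1* (y axes) against *Hbb-bs* (x axis) in 9 libraries, with replicate numbers, wildtype in blue and *Atf4* null in orange. Wildtype replicates 3, 4 and 5 are high on both axes for *Hba-a1*, *Hba-a2* and *Alas2*, while in the *Slc4a1* panel wildtype replicate 3 is at 6.05 CPM.

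Because the libraries fell into these separate sets, no correlation over all 9 was tested. Within the 6 lower libraries (4 *Atf4* null and 2 wildtype), 34 pairs of genes were compared by exact permutation over pairings, and none passed after adjustment. *Hbb-bs* and *Alas2* had r = 0.0167 (exact p = 0.961, adjusted p = 0.988) and rho = -0.143 (exact p = 0.803), and r was -0.215 without the 2 libraries farthest from the median of *Hbb-bs*. *Hbb-bs* and *Slc4a1* had r = 0.765 (exact p = 0.0764, adjusted p = 0.696) and rho = 0.657 (exact p = 0.175), and r was 0.922 without those 2 libraries and 0.461 with library size in place of TMM factors (exact p = 0.358). The lowest p was that of *Hba-a1* and *Hba-x*, with r = 0.891 (exact p = 0.00417, adjusted p = 0.142) and rho = 0.943 (exact p = 0.0167), where *Hba-x* had 0 to 10 counts. A relation of *Alas2* with the globins was thus not shown within this set, which was picked by its low *Hbb-bs* level, and the shared order of the sets above rests on 3 libraries of 1 genotype. In the same 6 libraries, deviations from the genotype means gave r = 0.02 for *Hbb-bs* and *Alas2* and 0.751 for *Hbb-bs* and *Slc4a1* (exact permutation within genotype, p = 0.958 and p = 0.271). They were not taken over all 9, since the wildtype libraries themselves fell into both sets.

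Outside the 9 member genes, which were left out of this search, the genes whose pattern over all 9 libraries was most like that of *Hbb-bs* were *Slc25a36*, *Bhlhe40*, *Sipa1*, *Ndst2* and *Arl15*, with a likeness (Pearson r of log2 CPM, a description over 13076 genes) of 0.908 to 0.896. For *Alas2* they were *Coro6*, *Sat1*, *Uaca*, *Trip10* and *Cib1*, at 0.917 to 0.910. None of these 10 passed the test between genotypes. On the same scale *Hbb-bs* and *Alas2* had a likeness of 0.882 to each other, a description over libraries that fell into separate sets.

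Few genes of the erythroid lists had the split of libraries seen in the adult globins. Which cells these genes were read from was not tested, so the lists may not report on red cells. The wildtype mean was 1236 CPM for *Sptb* and 378 for *Epb41*, above *Hbb-bs* at 209. Lists of red cell membrane, heme, regulator and enzyme genes held 67 genes, of which 47 were tested. Of these, *Fech*, the enzyme that completes heme, and *Aqp1*, a water channel, had wildtype replicates 3, 4 and 5 above the 6 other libraries, 4.26% against 1.82% of all genes tested, and neither was called. In all, 5 were called, all as lower in *Atf4* null, where 3.67% of all genes tested were, with a median log2 fold change of -0.14 over the 47, against 0.000716 over all genes tested. They were 3 genes of the membrane list, 1 of the heme list and 1 of the enzyme list, and no regulator. At an unadjusted p below 0.05, the count was 15 as lower and 1 as higher, the 5 included, where 10.2% of all genes were lower. Without wildtype replicate 5, 10 genes of these lists were called. In that fit the calls over all genes also rose, from 880 of 14903 to 1207 of 14493.

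*Ermap*, an erythroblast membrane protein, was at 48.5, 33.1, 30.4, 37.6 and 24.1 CPM in wildtype and at 3.29, 11.9, 7.57 and 4.66 in *Atf4* null. It fell by 2.34 on the log2 scale (SE 0.35, adjusted p = 0.00153 in edgeR), with the groups apart. Its highest library was wildtype replicate 1, which was among the lowest in globins.

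*Ank1*, the ankyrin that ties spectrin to band 3, was at 26.7, 23.1, 28.7, 19.2 and 34.6 CPM in wildtype and at 8.87, 1.92, 2.52 and 10.8 in *Atf4* null, and fell by 2.14 on the log2 scale (adjusted p = 0.0118 in edgeR). *Hmox1*, which breaks heme down and is also a stress gene of many cell types, was at 47.9 to 75.2 CPM in wildtype and 6.28 to 21.9 in *Atf4* null, and fell by 2.17 (adjusted p = 6.9e-04). *Tfrc*, the transferrin receptor by which cells take up iron, fell by 0.74 (adjusted p = 0.0341), and that call held in 9 of 17 alternatives. Since a call between genotypes favours genes whose wildtype libraries agree, the order of libraries in the called genes says nothing about the other list genes. Without wildtype replicate 5, *Ermap* was at -2.44 and *Ank1* at -2.02, both still called.

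Apart from *Hmox1*, the 2 most abundant genes per length on each of these lists did not pass the test. *Sptb*, the beta spectrin, was at 797 to 1495 CPM in wildtype and 546 to 1122 in *Atf4* null (log2 fold change -0.58, adjusted p = 0.126 in edgeR). *Epb41*, protein 4.1, had a log2 fold change of 0.01 (adjusted p = 0.979). The glucose transporter *Slc2a1* was at -0.61 (adjusted p = 0.0760) and the peroxiredoxin *Prdx2* at -0.37 (adjusted p = 0.148). *Slc25a39*, a mitochondrial carrier, was at -0.13 (adjusted p = 0.665), and the regulators *Ldb1* and *Zfpm1* at 0.17 and -0.23 (adjusted p = 0.434 and 0.512). *Eif2ak1*, the heme-regulated kinase of eIF2 alpha that lies upstream of ATF4 in red cell precursors, was at 0.05 (adjusted p = 0.900).

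Defining markers of maturing red cell precursors were at or near 0. *Gata1*, the master regulator, had 20 counts in all, all of them in 1 library, *Klf1* had 29 and *Nfe2* had 28. *Rhag* had 3 counts, *Kel* had 5, *Gfi1b* had 1, and *Icam4*, *Car1* and *Cldn13* had 0 in every library. The erythroid label of the 9 genes thus rested on the globins and *Alas2* in these lenses.

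**Figure D4:**
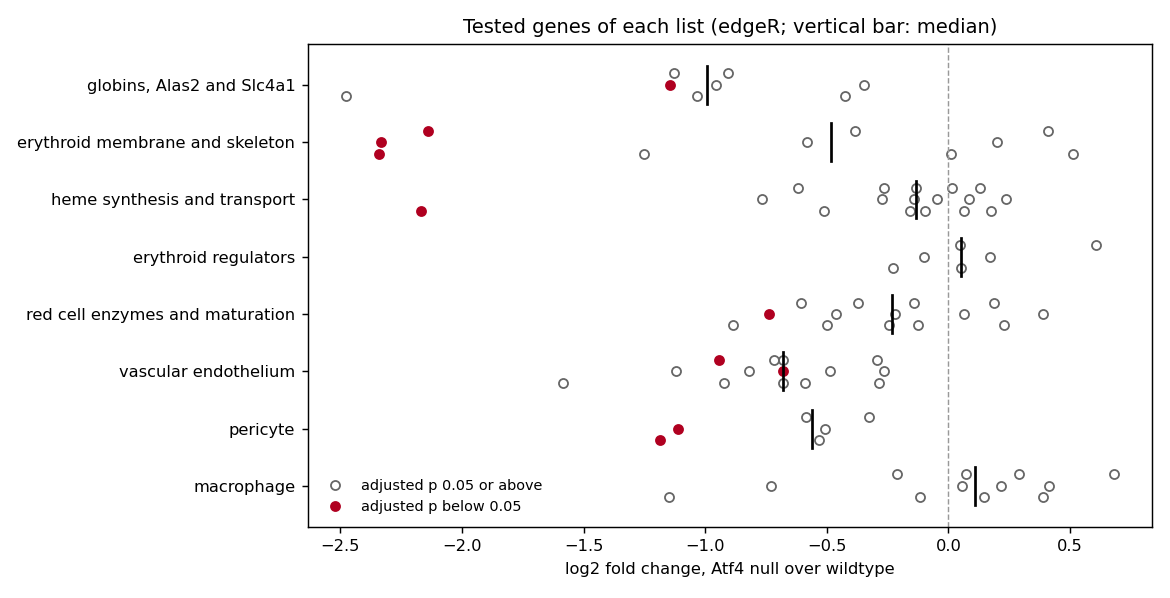
Log2 fold change (x axis, *Atf4* null over wildtype) of each tested gene (point, filled where the edgeR adjusted p is below 0.05) on each list (y axis), with the median as a vertical bar. The 5 called erythroid genes of the 4 lists lie between -2.34 and -0.74, and the single called gene of the top list is *Hba-a1* at -1.14.

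Summed markers of the vessel wall were highest in the libraries with the most globin, but no relation was shown within the 6 lower libraries. The 14 endothelial genes, all tested, had a median log2 fold change of -0.68, with 2 called as lower, *Egfl7* (-0.94, adjusted p = 0.0439 in edgeR) and *Plvap* (-0.68, adjusted p = 0.0490), where 3.67% of all genes tested were called as lower. Their summed level was 504, 545, 696, 714 and 886 CPM in wildtype and 431, 477, 574 and 310.4 in *Atf4* null, so that wildtype replicates 3, 4 and 5 were also the highest for endothelium. The 6 pericyte genes had a median of -0.56, with *Abcc9* (-1.19, adjusted p = 0.0422) and *Rgs5* (-1.11, adjusted p = 0.0355) called as lower, and sums of 319, 321, 490, 437 and 621 CPM in wildtype and 282, 261, 334 and 178 in *Atf4* null, again highest in wildtype replicates 3, 4 and 5. All 4 calls were lost when library size replaced the TMM factors, and over 17 alternatives each the calls held in 7 for *Egfl7*, 9 for *Plvap*, 9 for *Abcc9* and 10 for *Rgs5*. Wildtype replicate 5, with 2.02% of its counts on skeletal muscle and mesenchyme genes, had the highest sum on both lists. Without that library the call of *Egfl7* was lost (adjusted p = 0.0618 in edgeR). No gene of either list was at 0 in all libraries, and *Cdh5*, a junction protein of endothelium, was at 87.3 to 178 CPM in wildtype and 36.8 to 104.5 in *Atf4* null. Within the 6 lower libraries, *Cdh5* had r = -0.414 with *Hbb-bs* and 0.139 with *Alas2* (exact permutation over pairings, p = 0.411 and 0.764, adjusted p = 0.988 for both). Without the 2 libraries farthest from the median of *Hbb-bs* or *Alas2*, r was -0.957 and 0.615. Beyond these pairs, the part of vessels in the globin values was not tested. The 12 macrophage genes had a median of 0.109, none called, and sums of 102 to 124 CPM in wildtype and 112 to 135 in *Atf4* null.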

How the data were processed

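RNA from single lens pairs was sequenced from a stranded, random-primed total RNA kit. The authors trimmed reads with Trim Galore, removed RN45S reads with HISAT2, aligned to GRCm39 and ran HTSeq, and what they deposited are raw counts of reads for each gene. Summary entries that name no gene, 44.6% to 47.7% of a library's reads, were left out. Among them were the reads that aligned more than once, 5.03% to 5.74% of all reads of a library. Symbols came from GENCODE vM39 (54749 of 55416 identifiers). The quasi-likelihood test of edgeR 4.0.16 (R 4.3.3; filterByExpr, TMM factors) was fitted on all 9 libraries, adjusted over 14903 genes at 0.05. Log2 CPM used a prior count of 2. No 2 libraries were repeats (lowest chi-square per degree of freedom of 36 pairs 7.7). On simulated counts of this comparison, 41% of genes changed by a log2 of 1 and 94% of those changed by 2 were called. Exact tests, intervals and sequence searches used Python 3.11.15 and scipy 1.17.1.

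The members, lists and rules were chosen with earlier results of these data known. Genes named were the 9 members, called genes and the 2 highest by FPKM on each list, *Eif2ak1*, *Atf4* and the 5 genes most like *Hbb-bs* and *Alas2*; precursor markers with few counts, *Apex2*, *Fech*, *Aqp1* and *Cdh5* were named after their values were seen where outside that rule. Alternatives were DESeq2 1.42.0, exactTest, library size, factors without the members, no filter, 10 counts in every library, a robust fit, the replicate number as a block, other pseudocounts and each library left out. No column of another series' samples was used. Some genes on the lists are counted but not reported here by name.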

Additional observations from a re-analysis of the deposited data

Results flagged for a closer look

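In 30 groups of 4 or 5 libraries, the distance of the highest or lowest library to its neighbour was tested against the range of its group (Dixon's test), which flags about 1 in 20 groups by chance, and 5 values in 4 libraries stood apart. *Hbb-bh1* was at 1.32 CPM in *Atf4* null replicate 3 and at 0 in the other 3 *Atf4* null libraries. *Hba-x* was at 1.20 CPM in *Atf4* null replicate 2, and at 5.31 CPM in wildtype replicate 3, each above the rest of its genotype. *Slc4a1* was at 14.8 CPM in wildtype replicate 4. The summed macrophage list was at 135 CPM in *Atf4* null replicate 3, against 112 in the others of that genotype.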

How the results depend on the processing

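The member genes but *Hbb-y* and *Hbb-bh1* kept a lower mean in *Atf4* null under every alternative that could be fitted. *Hbb-bh1* was fitted with no filter alone, where it was higher (4.54, adjusted p = 0.269 in edgeR), a value that depends on the prior count since wildtype was at 0. *Hbb-bs* passed the threshold under DESeq2 (-1.13), exactTest (-1.13), no filter (-1.13) and 10 counts in every library (-1.14). *Hbb-bt* passed under DESeq2 (-1.03), exactTest (-1.03) and no filter (-1.04). It also passed under the replicate block (-0.90), which leaves out wildtype replicate 5 and whose numbers are not known to pair libraries. *Alas2* passed under DESeq2 (-0.95) and no filter (-0.96), and *Hba-a2* under no filter (-0.91). With each library left out, log2 fold changes ran from -1.28 to -0.90 for *Hba-a1*, -1.30 to -0.86 for *Hbb-bs*, -1.22 to -0.82 for *Hbb-bt*, -1.11 to -0.74 for *Hba-a2*, -1.17 to -0.78 for *Alas2*, -0.79 to -0.13 for *Slc4a1*, -4.48 to -2.06 for *Hba-x* (6 of the 9 could be fitted) and -0.95 to 0.065 for *Hbb-y*, which was at 0.065 without *Atf4* null replicate 2 and at 0.022 without replicate 3. *Hba-a1* weakened without *Atf4* null replicate 3 (-1.01) and wildtype replicate 4 (-1.10). *Hbb-bs*, *Hbb-bt*, *Hba-a2* and *Alas2* passed without wildtype replicate 1 (-1.30, -1.22, -1.11 and -1.17), and *Hbb-bs* without wildtype replicates 2 (-1.30) and 5 (-1.12). The cause was not tested.

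The count of 880 genes called became 1397 under DESeq2 and ran from 527 to 1207 with a library left out. It was lowest without *Atf4* null replicate 2 and highest without wildtype replicate 5. Library size in place of TMM factors moved the median of all genes to 0.125 and the share of calls that were higher from 37.8% to 64.3%. The 5 calls of the erythroid lists became 9 under DESeq2 and 9 under the replicate block, which also leaves out wildtype replicate 5, and 4 to 10 with a library left out, 10 without that replicate alone. The 2 endothelial calls became 6 under DESeq2 and no filter, 1 under the block, 0 under library size and 0 to 3 with a library left out, and the 2 pericyte calls 0 under library size and under the robust fit, and 0 to 2 with a library left out.

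The log2 ratio of *Hbb-y* to *Hbb-bs* turned to -0.037 both with the replicate block and without wildtype replicate 5 alone, and ran from -0.29 to 1.11 with a library left out, negative without *Atf4* null replicate 1 (-0.29), replicate 4 (-0.16) or wildtype replicate 5 (-0.037). That of *Hbb-bt* to *Hbb-bs* ran from -0.17 to 0.16, negative without *Atf4* null replicate 3 (-0.17) and wildtype replicates 1 (-0.036), 3 (-0.024) and 4 (-0.050). *Eif2ak1* was at -0.011 with the block and ran from -0.013 without wildtype replicate 5 to 0.097. *Epb41* was at -0.053 with the block and ran from -0.087 without *Atf4* null replicate 4 to 0.070. *Csf1r* ran from -0.050 without *Atf4* null replicate 3 to 0.17. Same-numbered libraries did not deviate together (correlations -0.131, -0.0187, -0.0227 and 0.00802), so the numbers were not taken as pairs. Correlations within 6 libraries were not repeated with one left out, since at least 6 were required.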

Other observations

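Other globins and blood cells were scarce. Of 7 further globin genes, *Cygb*, a cytoglobin of fibroblast-like cells, alone was tested (log2 fold change -1.19, adjusted p = 0.553 in edgeR), and *Hbq1b* had 20 counts in all, 19 of them in 1 library. The platelet list summed to 6.68 to 12.4 CPM in wildtype and 5.04 to 8.22 in *Atf4* null, with none of 2 tested genes called. None of the 8 granulocyte genes could be tested. Of the 8 neural retina genes, 3 were called as higher in *Atf4* null, where 2.23% of all genes tested were, and their sums were 310.4 to 788 CPM against 185 to 296. Of 11 tested lens genes, 2 were called as lower, where 3.67% of all genes were.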
